A study of Homo sapiens with 4 samples.

Results

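NEAT1, its genomic neighbour MALAT1 and the mRNAs of 7 proteins of the paraspeckle or of NEAT1 3′ end formation were followed in RNA sequencing. The cells were SKBR3, a HER2-positive breast cancer cell line, and protein levels were not measured in these libraries. The 9 genes were taken by symbol from a table of 56271 rows, and all 9 of 9 passed the filter on low values that left 12205 genes for testing. NEAT1 was 2.48-fold higher and MALAT1 1.74-fold higher in VIRMA-overexpressing cells than in eGFP control cells. Of the 7 protein-coding genes, 6 were lower, by 0.09 to 0.46 on the log2 scale, and SFPQ was higher by 0.07. The calls of SFPQ and of NUDT21, which had the smallest fall, did not hold under every alternative fit. NEAT1 was the only one of the 9 to pass a log2 fold change of 1.

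The 2 eGFP control libraries came from SKBR3 cells carrying a lentiviral FUW vector that expresses eGFP from the human ubiquitin C promoter. The 2 VIRMA-overexpressing libraries came from SKBR3 cells carrying the same vector with HA-tagged, full-length VIRMA, joined to eGFP by a P2A peptide. The latter are called VIRMA libraries and VIRMA cells. VIRMA is a scaffold of the enzyme complex that places the mark N6-methyladenosine (m6A) on RNA. Both cell populations were sorted for eGFP, so each is a pool of transduced cells and not a clone, and differences between the populations and effects of VIRMA cannot be told apart. The question put to the data is which transcripts differ once VIRMA is raised. The labels of all libraries speak of a low-oxygen chamber, whereas the study presents its RNA sequencing as ordinary culture, so the oxygen level is uncertain and was treated as equal in the groups. Total counts ran from 81446932 to 86375474 per library. The share of mitochondrial genes was 11.4% and 11.6% in the eGFP libraries and 12.8% in either VIRMA library, and its part in the results was not tested. Leaving these genes, NEAT1 and MALAT1 out of the library sizes left the NEAT1 log2 fold change at 1.31. The TMM scaling factors were computed anew there and offset such a change, so that fit could not test the share. The 7 markers of SKBR3 cells, among them ERBB2 and the luminal keratins, were all at or above 58.8 RPKM (reads per kilobase of exon per 1000000 counts) in every library. ESR1, PGR and CDH1, which this line lacks, were at or below 0.066 RPKM. The highest of 10 fibroblast, leukocyte and endothelial markers were COL1A1, with mean RPKM of 1.31 in the controls and 0.901 in the VIRMA libraries, and CDH5, with 0.854 and 1.25, and none of the 10 was at 0 in all 4 libraries. Their summed CPM (counts per 1000000) were 12.7 to 13.3 in the controls and 8.71 to 9.20 in the VIRMA libraries for fibroblasts, 1.96 to 2.98 and 1.60 to 1.74 for leukocytes, and 4.89 to 5.54 and 7.25 to 7.81 for endothelium, and their part in the results was not tested. VIRMA, listed as KIAA1429, checks the labels. It had 710 and 682 counts in the eGFP controls and 3437 and 3460 counts in the VIRMA libraries, a log2 fold change of 2.29 ± 0.069 (SE; adjusted p = 9.74e-26, edgeR).

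Paraspeckles are nuclear bodies built on the long non-coding RNA (lncRNA) NEAT1. NEAT1 is made in a short form, which is cleaved and polyadenylated early, and a long form, whose 3′ end is cut by RNase P and held as a triple helix instead of a poly(A) tail. The long form is the scaffold of the body. Cleavage factor Im, made of NUDT21 and CPSF6, favours the short form, and HNRNPK counteracts it. NONO, SFPQ and PSPC1 belong to the DBHS family of RNA-binding proteins and coat the RNA, while RBM14 helps to assemble the body. MALAT1, a lncRNA of nuclear speckles, lies downstream of NEAT1 and is matured at its 3′ end in the same way as the long form. The libraries were made from poly-A-enriched RNA, which recovers the short form of NEAT1 and only incompletely RNAs without a poly(A) tail.

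In GRCh38, NEAT1 occupies chr11:65422774-65445540 on the plus strand and MALAT1 occupies chr11:65497762-65506516 on the same strand, 52.2 kb downstream. The sequences shown next are the ends that decide which form of NEAT1 is made and what a poly-A library can recover. The first is the last 190 bases of the short form, chr11:65426324-65426513, with the AATAAA polyadenylation signal and every TGTA, the DNA letters of the UGUA element bound by NUDT21, in capitals. The window was chosen after the sequence had been seen.

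NEAT1 short form, 3′ end: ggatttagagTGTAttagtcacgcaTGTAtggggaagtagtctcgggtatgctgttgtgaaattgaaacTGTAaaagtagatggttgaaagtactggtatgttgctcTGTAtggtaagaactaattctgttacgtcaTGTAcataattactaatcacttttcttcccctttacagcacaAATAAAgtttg

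The window held 5 TGTA, searched on the transcript strand only, and no TGTA overlapped the AATAAA, which began 11 bases from the end of the annotated transcript. Of 12194 tested genes whose last 190 bases could be read, 2.44% held at least 5 TGTA, 65.5% held any and 60.1% held AATAAA. Because the window was chosen on NEAT1, and the other genes were read at their outermost annotated end, these shares do not measure rarity. A match of letters is a description and not a site of binding.

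The next pair are the last 100 bases of the long form of NEAT1, chr11:65445441-65445540, and the 100 bases of MALAT1 that end at chr11:65506116, each directly upstream of the tRNA-like RNA (menRNA and mascRNA) released by RNase P. Capitals mark runs of at least 10 bases that both RNAs share.

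NEAT1 long form, 3′ end: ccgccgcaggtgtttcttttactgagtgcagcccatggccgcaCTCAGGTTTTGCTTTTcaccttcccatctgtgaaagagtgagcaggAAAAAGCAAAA

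MALAT1, 3′ end: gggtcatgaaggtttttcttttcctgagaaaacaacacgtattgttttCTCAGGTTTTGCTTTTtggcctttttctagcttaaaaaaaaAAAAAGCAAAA

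The longest shared run was 16 bases, and shared runs covered 27 of the 100 bases of NEAT1. Both ends hold a T-rich stretch followed by an A-rich stretch at the cut end, the arrangement of the triple helix. The count table has a single row for NEAT1, so its counts join both forms. The study measured the forms separately by qPCR, outside these files, with cDNA primed by oligo-dT for the short form. It reports both forms as higher with full-length VIRMA and names the short form as dominant in SKBR3 cells. It also reports NEAT1 among the lncRNAs with higher expression and enriched m6A in these cells. The primer pair for the short form spans 71 bases at chr11:65424648-65424718, which lie within both forms, and the pair for the long form spans 71 bases at chr11:65442407-65442477, beyond the end of the short form.

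NEAT1_1 forward: aaacgctgggagggtacaag

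NEAT1_1 reverse: atgcccaaactagacctgcc

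NEAT1_2 forward: acagcattcctgtctgcgaa

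NEAT1_2 reverse: gacttcaggctccagccatt

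NEAT1 had 88813 and 89674 counts in the eGFP controls and 231483 and 218350 in the VIRMA libraries. It took 0.104% of all counts in each control and 0.279% and 0.268% in the VIRMA libraries, and moved from the 95th and 96th most counted gene to the 28th and 32nd. The groups did not overlap. Scaled to CPM with TMM factors, NEAT1 was 1069.7 ± 2.57 (SD, n = 2) in the controls and 2658 ± 64.6 (SD, n = 2) in the VIRMA cells. The log2 fold change was 1.31 ± 0.025 (SE, 95% interval 1.26 to 1.36; adjusted p = 8.61e-32, edgeR). NEAT1 ranked 269th of the 12205 tested genes by log2 fold change, counted from the highest, and 16th by p. It passed both thresholds, log2 fold change above 1 with adjusted p under 0.05, as did 552 genes in that direction, 4.52% of those tested, while 358 genes (2.93%) passed both in the opposite direction. With 1 VIRMA-overexpressing library left out, genes above 1 RPKM only in the VIRMA cells no longer pass the filter. Fewer genes were then tested, 11436 without replicate 1 and 11444 without replicate 2. Those fits therefore cannot show whether the excess of higher genes depends on 1 replicate. The NEAT1 log2 fold change was 1.32 without VIRMA-overexpressing replicate 1 and 1.37 without replicate 2. In bulk RNA, a change in the share of cells that express a gene and a change in RNA per cell cannot be told apart.

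MALAT1 had 25962 and 26643 counts in the eGFP controls and 47427 and 45447 in the VIRMA libraries. Its CPM was 315 ± 4.38 (SD, n = 2) in the controls and 549 ± 7.21 (SD, n = 2) in the VIRMA cells, again without overlap. The log2 fold change was 0.80 ± 0.029 (SE, 95% interval 0.74 to 0.86; adjusted p = 3.42e-23, edgeR), below the fold-change threshold. The interval lay below that of NEAT1. Within a library the ratio of NEAT1 to MALAT1 counts does not depend on scaling. It was 3.42 and 3.37 in the controls, against 4.88 and 4.80 in the VIRMA libraries, a difference of 0.51 on the log2 scale. An exact two-sided permutation test gave p = 0.333 for the ratio, the smallest p that 2 libraries against 2 allow, and 0.333 after Benjamini-Hochberg adjustment over the 12 ratios computed.

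**Figure D1:**
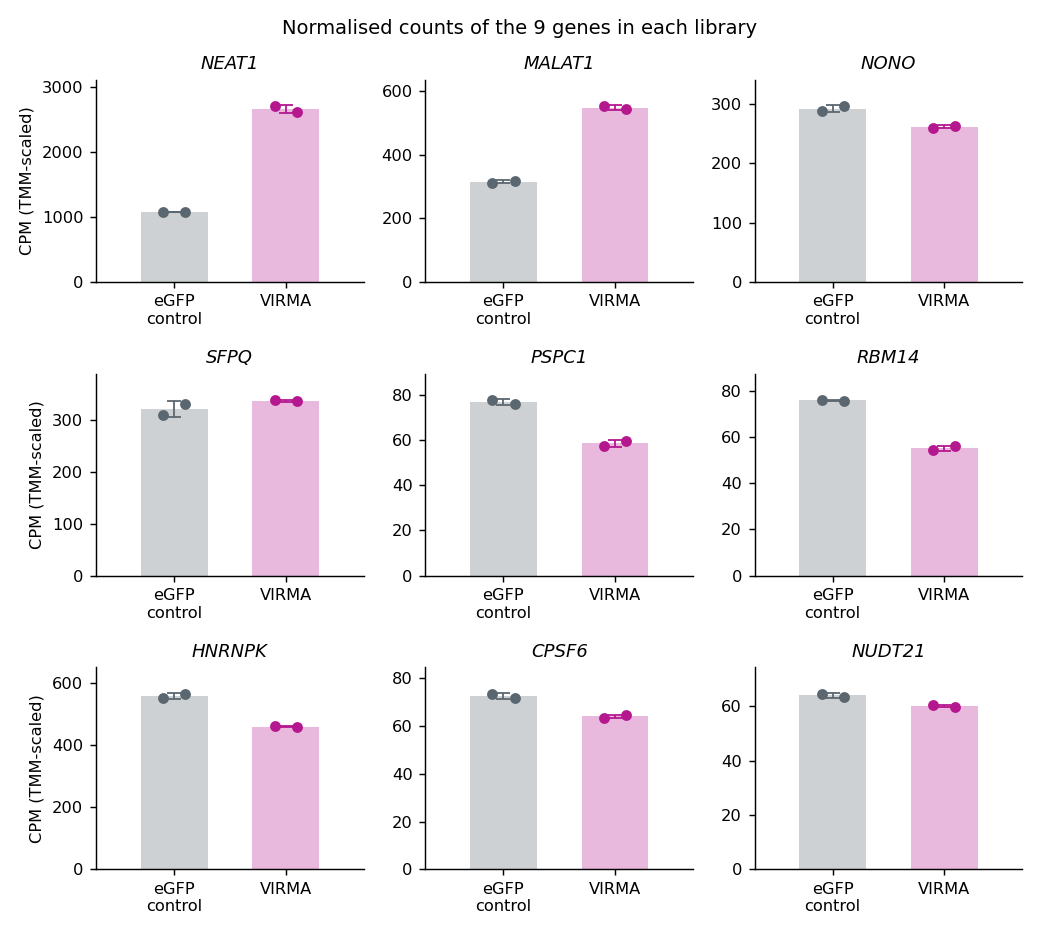
Normalised counts (CPM, TMM-scaled; each vertical axis starts at 0) of the 9 genes, with 1 point per library, bars for the mean and error bars for the SD of 2 libraries. The VIRMA-overexpressing points lie above the controls for NEAT1, MALAT1 and SFPQ and below them for the other 6 genes.

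The groups did not overlap for any of the 9 genes. Most tested genes behaved so, since 42.7% lay entirely higher and 41.6% entirely lower in the VIRMA libraries. By the edgeR adjusted p alone, 3 of the 9 genes were higher and 6 were lower, against 35.1% and 35.9% of all tested genes. A lower call at the adjusted p, whatever its size, was therefore common in this comparison. The middle 50% of all log2 fold changes ran from -0.31 to 0.36, and of the 6 lower genes RBM14 and PSPC1 lay below it.

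Among the mRNAs of the DBHS proteins, that of PSPC1 fell most. PSPC1, which is not needed for paraspeckles to form, had 6469 and 6350 counts in the eGFP controls and 4924 and 4975 in the VIRMA libraries, and both VIRMA-overexpressing values were below both controls. Its CPM went from 76.8 ± 1.35 to 58.5 ± 1.42 (SD, n = 2 each), a log2 fold change of -0.39 ± 0.041 (SE; adjusted p = 1.23e-10, edgeR). NONO, which pairs with SFPQ and is essential for the body, had 23973 and 24807 counts in the eGFP controls and 22281 and 21993 in the VIRMA libraries. Its CPM fell from 292 ± 5.78 to 262 ± 2.04 (SD, n = 2 each), a log2 fold change of -0.16 ± 0.031 (SE; adjusted p = 1.96e-05, edgeR), well within the middle 50% of all genes. SFPQ, the other essential DBHS protein, had 25726 and 27710 counts in the eGFP controls and 28954 and 28027 in the VIRMA libraries. The CPM of SFPQ was 309 and 331 in the controls, against 338 and 335 in the VIRMA libraries, so the control replicates lay further apart than control replicate 2 lay from the VIRMA-overexpressing libraries. Its log2 fold change was 0.07 ± 0.032 (SE; adjusted p = 0.0414, edgeR). The call was lost without control replicate 1 (0.01, adjusted p = 0.773), and also under DESeq2 and both other filters on low counts, so SFPQ was not shown to differ beyond these choices.

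Because the 3 DBHS proteins form dimers with one another, their mRNA levels per length were set side by side. The SFPQ to NONO ratio of RPKM was 0.765 and 0.796 in the controls, against 0.926 and 0.908 in the VIRMA libraries. The SFPQ to PSPC1 ratio was 2.58 and 2.83 in the controls, against 3.81 and 3.65 in the VIRMA libraries. The NONO to PSPC1 ratio was 3.37 and 3.56 in the controls, against 4.12 and 4.02 in the VIRMA libraries. All 3 ratios were higher in the VIRMA libraries, with no overlap between groups (exact two-sided permutation p = 0.333 for each, the smallest possible). The SFPQ to PSPC1 ratio is the product of the other ratios, so its direction followed from theirs. These directions also restate the order of the log2 fold changes above: SFPQ (0.07), NONO (-0.16) and PSPC1 (-0.39). Lack of overlap was common among single tested genes (42.7% higher, 41.6% lower). How common it is among ratios of genes was not tested. SFPQ weighed more in both of its ratios, although its own level was not shown to differ.

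RBM14 fell most of the 7 protein-coding genes. It had 6331 and 6337 counts in the eGFP controls and 4657 and 4680 in the VIRMA libraries. Its CPM went from 75.9 ± 0.285 to 55.2 ± 1.13 (SD, n = 2 each), a log2 fold change of -0.46 ± 0.041 (SE, 95% interval -0.54 to -0.38; adjusted p = 2.66e-12, edgeR). RBM14 and PSPC1 were the 2 members whose log2 fold change lay below the middle 50% of all tested genes.

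The 3 regulators of the choice between the short and the long form were all lower. HNRNPK, which counteracts cleavage factor Im on NEAT1, had 45871 and 47327 counts in the eGFP controls and 39464 and 38327 in the VIRMA libraries. Its CPM fell from 559 ± 9.87 to 459.7 ± 1.68 (SD, n = 2 each), a log2 fold change of -0.28 ± 0.028 (SE; adjusted p = 6.45e-11, edgeR). CPSF6, the larger subunit of cleavage factor Im, had 6113 and 5983 counts in the eGFP controls and 5439 and 5395 in the VIRMA libraries, with a log2 fold change of -0.18 ± 0.040 (SE; adjusted p = 0.000183, edgeR). NUDT21, the subunit that reads UGUA, had 5375 and 5305 counts in the eGFP controls and 5169 and 4992 in the VIRMA libraries. The log2 fold change of NUDT21 was -0.09 ± 0.041 (SE, 95% interval -0.18 to -0.01; adjusted p = 0.0465, edgeR). That call did not hold without control replicate 1 (adjusted p = 0.121), VIRMA-overexpressing replicate 1 (0.229) or VIRMA-overexpressing replicate 2 (0.365). The fall of HNRNPK and those of CPSF6 and NUDT21 were not tested against each other.

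**Figure D2:**
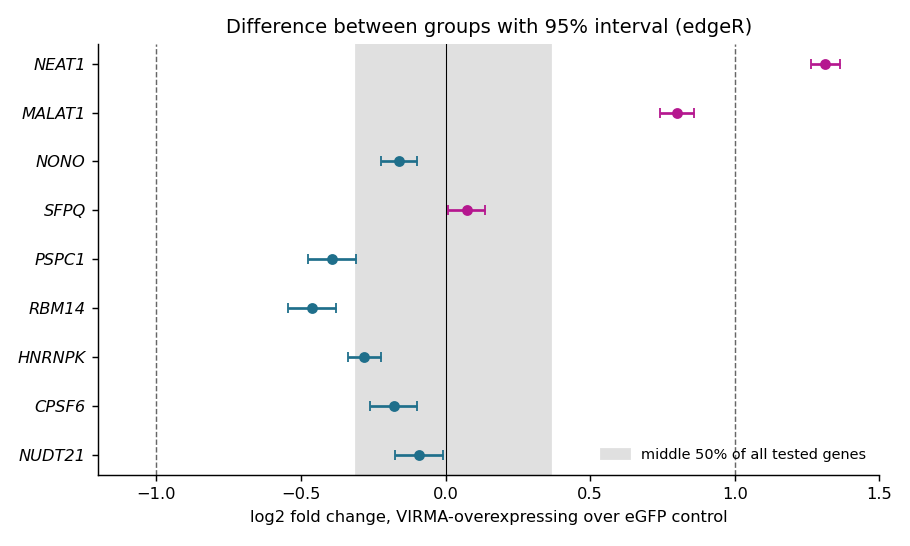
Log2 fold change (VIRMA-overexpressing over eGFP control) of each gene with its 95% interval from edgeR, over a grey band for the middle 50% of the 12205 tested genes (-0.31 to 0.36) and dashed lines at the fold-change threshold. NEAT1 alone lies past a dashed line, MALAT1 lies between the band and the line, and PSPC1 and RBM14 lie just below the band.

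Levels of different genes were compared per length, as RPKM from library totals without TMM factors. In the controls the order was HNRNPK (106), NONO (53.7), NEAT1 (45.6), SFPQ (41.9), MALAT1 (35.0), RBM14 (18.7), PSPC1 (15.5), NUDT21 (10.4) and CPSF6 (9.80). In the VIRMA-overexpressing cells NEAT1 came first at 120.2 RPKM, followed by HNRNPK (92.5), MALAT1 (64.5), NONO (50.9), SFPQ (46.7), RBM14 (14.4), PSPC1 (12.5), NUDT21 (10.4) and CPSF6 (9.17). The values of neighbours in the order did not overlap between them in either group. By the deposited lengths NEAT1 thus passed NONO and HNRNPK, and MALAT1 passed SFPQ and NONO. The order of the other genes was the same in both groups. With the short form as its length, NEAT1 lay above the other members in both groups and passed none. Against HNRNPK, the most abundant of the proteins' mRNAs, the NEAT1 level per length was 0.435 and 0.426 in the controls, against 1.32 and 1.28 in the VIRMA libraries.

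The levels per length depend on the length used, and the study states that its poly-A sequencing cannot detect the long form of NEAT1. Divided by the 3716-base span of the annotated short form in place of the deposited 22767 bases, NEAT1 would be at 279.6 RPKM in the control and 736.2 in the VIRMA cells, above the other members in both groups. Rows that overlap others also lose reads. The table has 75 rows of at least 100 bases that lie wholly within the exons of a row with a mean of at least 10000 counts, 22 on the same strand and 53 on the opposite strand, and all 75 had 0 counts in all 4 libraries. Such rows cover 384 bases (1.69%) of NEAT1, as the rows named NEAT1_1, NEAT1_2 and NEAT1_3, which are short conserved stretches near the 5′ end and not the short and long forms. Within MALAT1, 2042 bases (23.3%) lie under other rows, mainly the antisense rows AP000769.7 and AP000769.1, where reads may not have been counted for MALAT1. Counted over the bases under no other row, MALAT1 was at 45.6 RPKM in the controls, next to NEAT1 at 46.4, and at 84.2 in the VIRMA cells against 122.2 for NEAT1. MALAT1 was then above the SFPQ level given above in the controls. The log2 fold changes do not depend on these lengths. Among the proteins, 10.97% of RBM14 lies under the RBM14-RBM4 readthrough row and 6.04% of HNRNPK under antisense rows, and the other 5 had less than 1%. HNRNPK, NONO, SFPQ and PSPC1 also have processed pseudogenes, and how reads with several alignments were counted is not stated, so their levels are uncertain to that extent.

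**Figure D3:**
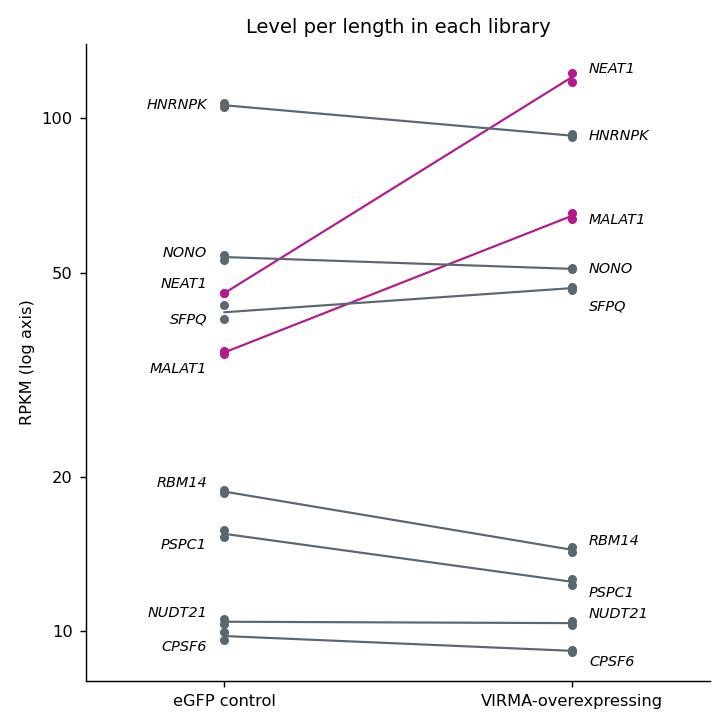
Level per length (RPKM, log axis) of the 9 genes, with 1 point per library and a line joining the group means. By the deposited lengths, NEAT1 rises from 45.6 to 120.2 and crosses NONO and HNRNPK, and MALAT1 rises from 35.0 to 64.5 and crosses SFPQ and NONO. The other 7 lines move by less. With the short form as its length, NEAT1 would lie above the others in both groups.

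NEAT1 and MALAT1 were then set beside the genes around them. Of 33 rows analysed within 200 kb of the pair on chromosome 11, 17 were tested. Of the 15 tested rows other than NEAT1 and MALAT1, 4 were higher and 10 were lower at the edgeR adjusted p (35.1% and 35.9% over all tested genes), with a median log2 fold change of -0.26 and a highest value of 0.49, below both NEAT1 and MALAT1. The gene closest upstream, FRMD8, a cofactor of the protease regulators iRhoms, had 11534 and 11412 counts in the eGFP controls and 8599 and 8316 in the VIRMA libraries, with a log2 fold change of -0.46 ± 0.035 (SE; adjusted p = 4.18e-14). Between NEAT1 and MALAT1, the lncRNA row CMB9-22P13.1 had 545 and 582 counts in the eGFP controls and 708 and 583 in the VIRMA libraries. The second VIRMA library thus lay next to the controls, and the log2 fold change was 0.17 ± 0.118 (SE; adjusted p = 0.185), or 0.32 without that library (adjusted p = 0.0469).

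Further out, POLA2, a subunit of DNA polymerase alpha whose start lies 161.0 kb upstream of that of NEAT1, was the only one of these 15 past both thresholds, with a log2 fold change of -1.03 ± 0.063 (SE; adjusted p = 1.07e-16, edgeR). CDC42EP2, an effector of CDC42, followed at -0.85 (SE 0.066; adjusted p = 8.38e-14). The highest of the 15, SSSCA1-AS1, had 245 and 246 counts in the eGFP controls and 327 and 370 in the VIRMA libraries, a log2 fold change of 0.49 ± 0.164 (SE; adjusted p = 0.00897), and without VIRMA-overexpressing replicate 2 its adjusted p was 0.104. SLC25A45, a mitochondrial carrier, was at 0.39 (SE 0.084; adjusted p = 0.000114). The remaining tested rows of the window were DPF2, LTBP3, SSSCA1, FAM89B, EHBP1L1, MAP3K11, PCNX3, SIPA1 and RELA, which ranged from -0.54 for SIPA1 to 0.21 for LTBP3. The row mascRNA-menRNA, the small RNAs cut from MALAT1 and the long form of NEAT1, had 8, 1, 2 and 0 counts, too few for the filter.

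**Figure D4:**
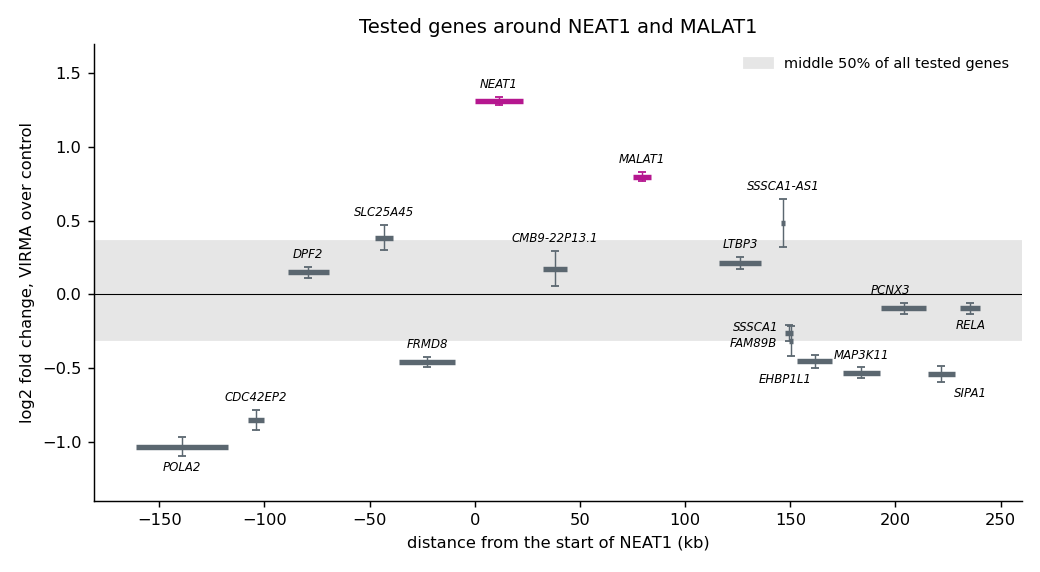
Log2 fold change of the 17 tested rows shown around NEAT1 and MALAT1 against distance from the NEAT1 start in kb, with horizontal bars for the extent of each row, vertical bars for ± SE and a grey band for the middle 50% of all tested genes. NEAT1 (1.31) and MALAT1 (0.80) stand above the other 15, which reach from -1.03 to 0.49.

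The other genes of the pathway were read from lists. Of 34 further paraspeckle proteins, the mRNAs of 31 were tested. Of these, 9 were higher and 17 were lower at the edgeR adjusted p (35.1% and 35.9% of all tested genes), and none passed both thresholds. Their median log2 fold change was -0.10, against 0.01 over all tested genes. HNRNPH1, a splicing regulator that binds G-rich RNA, rose from 28092 and 28156 counts to 51711 and 49461, a log2 fold change of 0.83 ± 0.029 (SE; adjusted p = 8.35e-24). CIRBP, the cold-inducible RNA-binding protein, rose by 0.70 (SE 0.032; adjusted p = 2.56e-20). HNRNPF, the close relative of HNRNPH1, fell by 0.54 (SE 0.031; adjusted p = 1.55e-17), opposite to HNRNPH1. HNRNPM fell by 0.54 (SE 0.032; adjusted p = 3.86e-17). FIGN, RUNX3 and ZC3H6 did not reach the filter.

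Of 16 further cleavage and polyadenylation factors, all 16 were tested, 7 were higher and 8 were lower at the edgeR adjusted p, beside 35.1% and 35.9% of all tested genes, and none passed both thresholds. The number higher was 4 without control replicate 1 and 4 under both other filters on low counts. The median was -0.10. CPSF4, a subunit of the factor that reads AATAAA, fell by 0.51 (SE 0.040; adjusted p = 1.08e-13, edgeR). PCF11, which links cleavage to the end of transcription, rose by 0.56 (SE 0.049; adjusted p = 2.13e-12). CSTF1 and CSTF2, subunits of the cleavage stimulation factor, fell by 0.43 (SE 0.038; adjusted p = 3.39e-12) and 0.68 (SE 0.076; adjusted p = 7.75e-10).

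The list of enzymes at the 3′ ends of MALAT1 and the long form held 13 genes: subunits of RNase P, the tRNA 3′ processing enzyme ELAC2 and METTL16, a methyltransferase that binds the MALAT1 triple helix. All 13 were tested, 7 were lower and 0 were higher at the edgeR adjusted p, where all tested genes had 35.1% higher and 35.9% lower. They had a median log2 fold change of -0.33. With upper-quartile factors or library totals 2 were higher, and 1 was without VIRMA-overexpressing replicate 2. RPP25 fell from 4250 and 4353 counts to 2253 and 2226, a log2 fold change of -0.96 ± 0.051 (SE; adjusted p = 1.94e-18). POP7, its partner in the enzyme, fell by 0.63 (SE 0.037; adjusted p = 3.57e-17). POP4 fell by 0.54 (SE 0.050; adjusted p = 8.82e-12) and POP1, the largest subunit, by 0.69 (SE 0.077; adjusted p = 5.62e-10). METTL16 had a log2 fold change of 0.00 ± 0.060 (SE; adjusted p = 0.973).

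NEAT1 and MALAT1 were also compared with 14 other lncRNAs that are often studied, of which 9 were tested, while KCNQ1OT1, MIAT, MEG3 and FTX did not reach the filter and CYTOR was not analysed here. At the edgeR adjusted p 6 were higher and 2 were lower, against 35.1% and 35.9% of all tested genes, with a median log2 fold change of 0.43, and none passed both thresholds. TUG1 rose by 0.70 (SE 0.036; adjusted p = 7.31e-19), GAS5, a snoRNA host, by 0.68 (SE 0.029; adjusted p = 5.82e-21) and NORAD, which binds Pumilio proteins, by 0.59 (SE 0.030; adjusted p = 4.68e-19). H19, an imprinted lncRNA, was among the most counted genes of the controls, with 995601 and 998783 counts, and had 535513 and 529223 counts in the VIRMA libraries, a log2 fold change of -0.93 ± 0.019 (SE; adjusted p = 9.90e-31). Among the tested lncRNAs of the list none had a log2 fold change as high as those of NEAT1 and MALAT1. Below the filter, FTX had 156 and 134 counts in the eGFP controls and 319 and 338 in the VIRMA libraries, and under both other filters on low counts 8 of the list were higher.

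**Figure D5:**
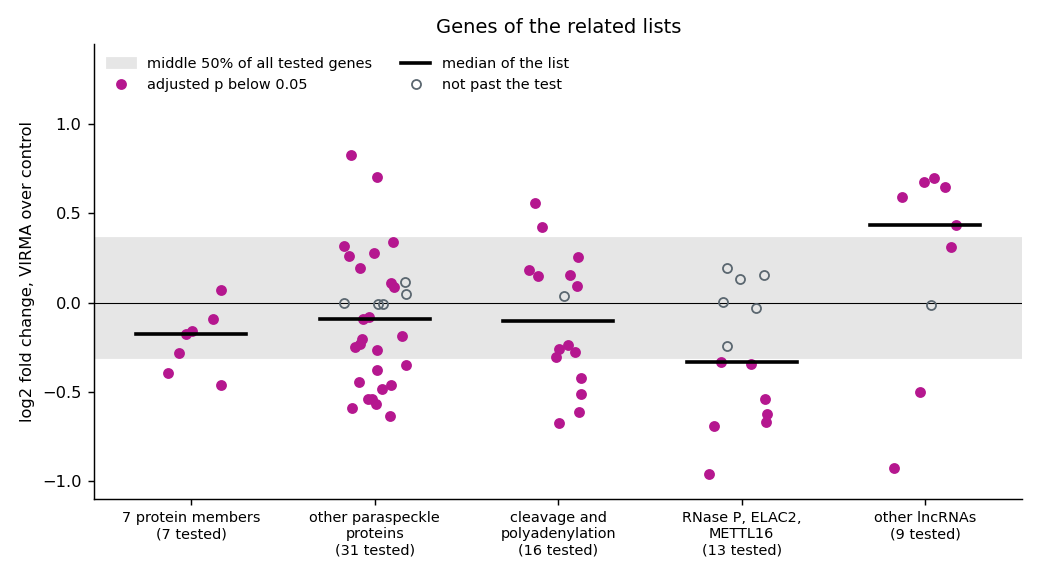
Log2 fold change of each tested gene in the 7 protein members and 4 related lists, filled where the edgeR adjusted p was below 0.05, with black bars for list medians and a grey band for the middle 50% of all tested genes. The median of the enzymes at the triple-helix ends (-0.33) lies just below the band, that of the other lncRNAs (0.43) lies above it, and the other 3 medians lie within it.

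The genes whose pattern over the 4 libraries was nearest to that of NEAT1 were sought among 3607 tested genes with a mean of at least 50 CPM, by the Euclidean distance between centred log2 CPM values. They were GPT2, a mitochondrial alanine aminotransferase (distance 0.037), RRP7BP, a pseudogene whose reads may be shared with its parent (0.039), VEGFA, the angiogenic growth factor (0.040), GFPT1, the first enzyme of the hexosamine pathway (0.052), and BRWD1, a bromodomain protein (0.066). VEGFA, for example, had 165.6 and 164.5 CPM in the controls, against 403.6 and 399.2 in the VIRMA libraries. Nearest to MALAT1 were TCEA1, a transcription elongation factor (0.0092), ARGLU1 (0.014), PYCR1, an enzyme of proline synthesis (0.016), ZKSCAN1 (0.019) and RBM25, a splicing factor (0.024). With 4 libraries in 2 groups, such likeness reflects mainly a similar log2 fold change.

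The sequence GGACT, the letters of the RNA motif most often methylated by the m6A complex, was counted on the transcript strand of each gene's merged exons in GRCh38. Tested genes had a median of 0.907 per kb (middle 50% 0.544 to 1.34; 12194 genes read). NEAT1 held 19 over its whole row, or 0.835 per kb, but only 2 of these lay within the span of the short form, or 0.538 per kb, just below the middle 50%. MALAT1 held 13, or 1.48 per kb, above it. SFPQ had 12, or 1.62 per kb, the highest of the 9 genes, while HNRNPK held 1 and CPSF6 held 0. NONO, PSPC1, RBM14 and NUDT21 lay between 0.756 and 1.01 per kb. Methylation itself was not analysed here, and a motif count says nothing of whether a site is used.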

How the data were processed

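Poly-A-enriched RNA of SKBR3 cells was sequenced with a stranded kit in 4 libraries, 2 per group. Per the study's methods, the authors trimmed reads with Trimmomatic 0.39, aligned them to hg38 with STAR 2.5.2a and counted them with featureCounts. The submitters' processing notes also name GRCm38. The deposited table holds the authors' counts of reads per gene without normalization. Whether strand was used in counting is not stated in the sources used here. Columns of the VIRMA-overexpressing libraries name no construct, and they were assigned by elimination, as those left once the control columns were matched.

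Members and gene lists were chosen with earlier results of these data known. RPKM was computed from library totals and deposited exonic lengths, and genes with RPKM above 1 in at least 2 libraries were tested in edgeR 4.0.16 by quasi-likelihood (R 4.3.3, TMM, group as the only term, Benjamini-Hochberg adjustment over all 12205 tested genes). Thresholds were an adjusted p of 0.05 and a log2 fold change of 1. SE was taken as the absolute log2 fold change over the root of the F statistic. The script was tested on simulated counts. The replicates differed by more than counting noise (chi-square per degree of freedom 6.01 and 4.98), and p-values measure only the spread between 2 biological duplicates. Sequences are from GRCh38 with GENCODE annotation, and primers from the study's oligo list.

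The text names all members, VIRMA, in each list the genes past both thresholds and the 4 of smallest adjusted p among the rest, tested rows of the locus and those overlapping NEAT1 or MALAT1, and the 5 genes of nearest pattern. Alternatives were DESeq2 1.42.0, limma-voom 3.58.1, other scalings and filters, a replicate block, leaving out each library, the short-form length and, chosen after seeing the data, lengths without overlapped bases. An item of the locus is not reported here.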

Additional observations from a re-analysis of the deposited data

How the results depend on the processing

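NEAT1 (log2 fold change 1.269 to 1.397), MALAT1 (0.76 to 0.88), NONO, PSPC1, RBM14, HNRNPK and CPSF6 held both direction and call at the adjusted p under each of 13 alternatives, and NEAT1 passed the fold-change threshold in each. SFPQ lost its call with DESeq2 size factors and in DESeq2 (0.068 in both; adjusted p 0.058 and 0.0831), with filterByExpr (0.029; 0.504) and unfiltered (0.038; 0.453), and ranged from 0.013 to 0.115 with 1 library left out. NUDT21 lost its call with upper-quartile factors (-0.021; adjusted p 0.67), library totals (-0.009; 0.861), DESeq2 (-0.097; 0.076) and limma-voom (-0.092; 0.0523), and ranged from -0.114 to -0.054 with 1 library left out. Where 1 library was left out, the lone library of its group was assumed to vary like the others, and VIRMA itself fell below the filter when a VIRMA-overexpressing library was left out.

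Genes past both thresholds numbered 1044 higher and 808 lower with filterByExpr, 1137 and 820 unfiltered, and 4282 and 4379 by adjusted p alone, and 308 to 570 higher with 1 library left out. Of the cleavage and polyadenylation list 4 were higher under both other filters, and 4 to 7 with 1 library left out. Of the RNase P list 2 were higher with upper-quartile factors and with library totals, and 0 to 1 with 1 library left out. The control RPKM of NEAT1 was 279.6 with the short-form length and 46.4 without overlapped bases, and that of MALAT1 45.6. The fits with more rows tested more genes; other causes were not tested.

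With the replicate block the NEAT1 log2 fold change was 1.31 and 541 genes were higher past both thresholds against 552, and it changed no call of a member. Same-numbered libraries deviated together only weakly (r = 0.0755), so the numbers were not taken to pair the libraries. The lowest count of a member in a library was 4657, and the effect of depth was not tested.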
